A study of Homo sapiens with 6 samples.

Results

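APOA1, APOC3, APOA4 and APOA5 are 4 neighbouring apolipoprotein genes on the long arm of human chromosome 11, and they were taken from the gene table by symbol, 4 of its 58037 rows. They were measured by RNA sequencing in differentiated HepaRG cells, a line derived from a human hepatocellular carcinoma that forms hepatocyte-like and biliary-like cells in culture, at passages 15 to 18. The fatty acid group (n = 3) received 0.5 mM palmitate and oleate, 1 part to 2 parts, bound to bovine serum albumin at 0.02% for 72 h. The control group (n = 3) received the same albumin without the fatty acids for 72 h. The series examines how this lipid loading, a culture model of steatosis, alters the expression of drug-metabolizing enzymes and transporters. The labels do not say that the replicates were separate cultures, so p-values measure only the spread between these libraries, which may be technical.

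Apolipoproteins coat the lipid particles of plasma, hold them soluble and steer the enzymes and receptors that act on them. APOA1 is the main protein of high-density lipoprotein (HDL) and activates LCAT, the enzyme that esterifies its cholesterol. APOC3 travels on triglyceride-rich particles, where it inhibits lipoprotein lipase and slows the uptake of remnants by the liver, and APOA5 promotes lipolysis of the same particles. APOA4 is made mostly by the human small intestine and is carried on chylomicrons and HDL, while in the mouse it is also made in the liver and rises there with fat load. A regulatory region before APOC3 is known to act as an enhancer for its neighbours as well, and in human liver the lipid-sensing receptor PPARA is known to raise APOA1 and APOA5 and to lower APOC3.

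The 4 genes span 48.6 kb in GRCh38. APOA5 (ENSG00000110243.11) lies at chr11:116789367-116792420 on the minus strand, APOA4 (ENSG00000110244.6) at chr11:116820700-116823306 on the minus strand, APOC3 (ENSG00000110245.11) at chr11:116829706-116833072 on the plus strand and APOA1 (ENSG00000118137.9) at chr11:116835751-116837950 on the minus strand. Gaps of 28.3 kb, 6.40 kb and 2.68 kb separate them in that order, so that APOC3 and APOA1 are read towards each other. RefSeq promoter sequences (GRCh38.p14) matched 2 of the 4 members, APOA4 and APOA5, and not APOA1 or APOC3. The 250 bases before the RefSeq start are shown, which lies 2 bases from the table's start of APOA4 and 0 from that of APOA5. APOA4 and APOA5, neighbours on one strand, lay on opposite sides of their control levels with fatty acid, though APOA5 did not pass the test. Whether the letters bear on these values was not tested. Capitals mark AGGTCA, the core letters of many nuclear receptor sites, searched on both strands (TGACCT on the other).
APOA4, chr11:116823305-116823554, minus strand: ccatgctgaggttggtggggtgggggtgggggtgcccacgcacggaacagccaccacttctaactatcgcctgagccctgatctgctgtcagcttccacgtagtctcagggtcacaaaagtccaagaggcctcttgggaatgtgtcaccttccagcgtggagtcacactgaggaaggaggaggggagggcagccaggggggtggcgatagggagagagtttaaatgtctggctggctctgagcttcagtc
APOA5, chr11:116792421-116792670, minus strand: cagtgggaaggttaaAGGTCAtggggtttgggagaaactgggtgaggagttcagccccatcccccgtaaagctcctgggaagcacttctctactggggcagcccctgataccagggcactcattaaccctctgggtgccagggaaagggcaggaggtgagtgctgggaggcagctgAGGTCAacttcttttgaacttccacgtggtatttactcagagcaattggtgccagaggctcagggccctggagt
The APOA5 window held AGGTCA at 2 places, which start 235 and 74 bases before the start of the gene, and the APOA4 window held none. Of 35116 RefSeq promoter windows of the same length, 12.1% held these letters. The letters CAAAG (the core of HNF4 sites), TGACG (part of the cyclic AMP response element) and TATAA, also searched on both strands, were in neither window, against 42.1%, 21.2% and 18.9% of all windows. All searches took exact letters only, so a site that departs from them by a single letter was not counted. Absence of the letters therefore does not show absence of a site. APOA5 has another RefSeq start 541 bases inside the gene, whose window of 250 bases, not shown, held AGGTCA at 1 place. The gene-level value of APOA5 does not separate transcripts from the 2 starts.

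Expression is given as FPKM, which counts fragments per kilobase of gene length and is scaled to the size of the library, as the authors deposited it. Library depth was 8364570, 14362728 and 15941353 reads in fatty acid replicates 1, 2 and 3, and 8964921, 6331372 and 11821423 reads in control replicates 1, 2 and 3. Log2 fold changes are fatty acid minus control on log2(FPKM + 0.5), which understates changes of low genes, with the SE from limma fitted on 14661 genes. Of these, 12.9% passed a Benjamini-Hochberg adjusted p of 0.05 (8.22% higher and 4.68% lower), and the median log2 fold change of all was 0.04. The split moved with the scaling, with 1205 genes higher and 686 lower as deposited, 2615 and 408 with TPM, 779 and 818 with the median of ratios, 758 and 772 with quantile normalization and 710 and 835 with nuclear reads. Mitochondrially encoded genes took 9.15 to 11.9% of the reads in fatty acid libraries and 12.2 to 15.0% in control libraries.

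APOA4 differed in direction from APOC3 and APOA1. It rose 3.66-fold, APOC3 fell to 0.391 of its control level, and APOA1 fell to 0.701 of it. APOA5 averaged 0.680 of its control level but did not pass the test. Thus 3 of the 4 members were called, 1 higher and 2 lower. The groups did not overlap for any of the 4, which also held for 37.1% of all tested genes (23.7% higher and 13.3% lower). By a two-sided exact permutation test on each gene alone, every member had p = 0.1, the smallest value that 3 libraries a group allow. All 4 directions held under every scaling tried.

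APOA1 had 218, 212 and 217 FPKM in fatty acid libraries, against 338, 256 and 329 FPKM in control libraries. The fatty acid values lay close together and all below the lowest control, by 38.0 FPKM. The group levels were 216 ± 3.35 FPKM with fatty acid and 308 ± 44.9 FPKM in controls (SD, n = 3 each), a log2 fold change of -0.50 ± 0.10 (limma adjusted p = 0.0221). Control replicate 2 was the low one: its 2311 reads gave a 95% counting interval of 246 to 267 FPKM, outside the 328 to 349 FPKM of control replicate 1. The call of APOA1 was lost without control replicate 3 (limma adjusted p = 0.0646) and without fatty acid replicate 1, 2 or 3 (0.0858, 0.0892 and 0.0636). It was also lost with no filter on low genes (0.0696) and without the intensity trend (0.0548), with the same log2 fold change of -0.50.

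APOC3 was the most abundant member per length in every library. It had 312, 312 and 332 FPKM with fatty acid, against 947, 784 and 718 FPKM in controls. The highest fatty acid library lay 385 FPKM below the lowest control library. APOC3 averaged 319 ± 11.8 FPKM with fatty acid and 816 ± 118 FPKM in controls (SD, n = 3 each), and its log2 fold change was -1.35 ± 0.10 (95% interval -1.58 to -1.12, limma adjusted p = 0.000332). In order of FPKM it stood between places 77 and 85 of all gene rows with fatty acid and between places 29 and 33 in controls. Its log2 fold change was number 55 from the bottom among the 14661 tested genes.

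APOA4 was the member that rose. It had 20.5, 23.5 and 23.5 FPKM with fatty acid, against 6.51, 6.54 and 5.40 FPKM in controls, so that the lowest fatty acid library lay 14.0 FPKM above the highest control library. These values rest on 253 to 551 reads per fatty acid library and on 61 to 94 reads per control library. The group levels were 22.5 ± 1.71 FPKM with fatty acid and 6.15 ± 0.652 FPKM in controls (SD, n = 3 each), a log2 fold change of 1.79 ± 0.09 (95% interval 1.58 to 2.01, limma adjusted p = 8.74e-05). Pooled over the libraries of a group and adjusted for depth, its reads were 3.79 times as many with fatty acid (95% exact interval 3.30 to 4.37). All such intervals cover counting error only. Its log2 fold change was number 7 from the top among the 14661 tested genes.

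APOA5 had 9.01, 12.6 and 10.7 FPKM with fatty acid, against 19.6, 14.0 and 13.8 FPKM in controls. The groups came within 1.26 FPKM of each other, and control replicate 1 was the highest. The levels were 10.8 ± 1.79 FPKM with fatty acid and 15.8 ± 3.26 FPKM in controls (SD, n = 3 each), with the widest relative spread of the 4 genes in both groups (16.6% and 20.6% of the mean). The log2 fold change of -0.53 ± 0.16 (95% interval -0.90 to -0.16) was about that of APOA1 with a larger SE, and its limma adjusted p was 0.0681. APOA5 passed with a minimum of 2 FPKM (limma adjusted p = 0.0400) and with voom on the reads recovered from the table (0.0121), and in none of the other alternatives, where its adjusted p ran up to 0.202.

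**Figure D1:**
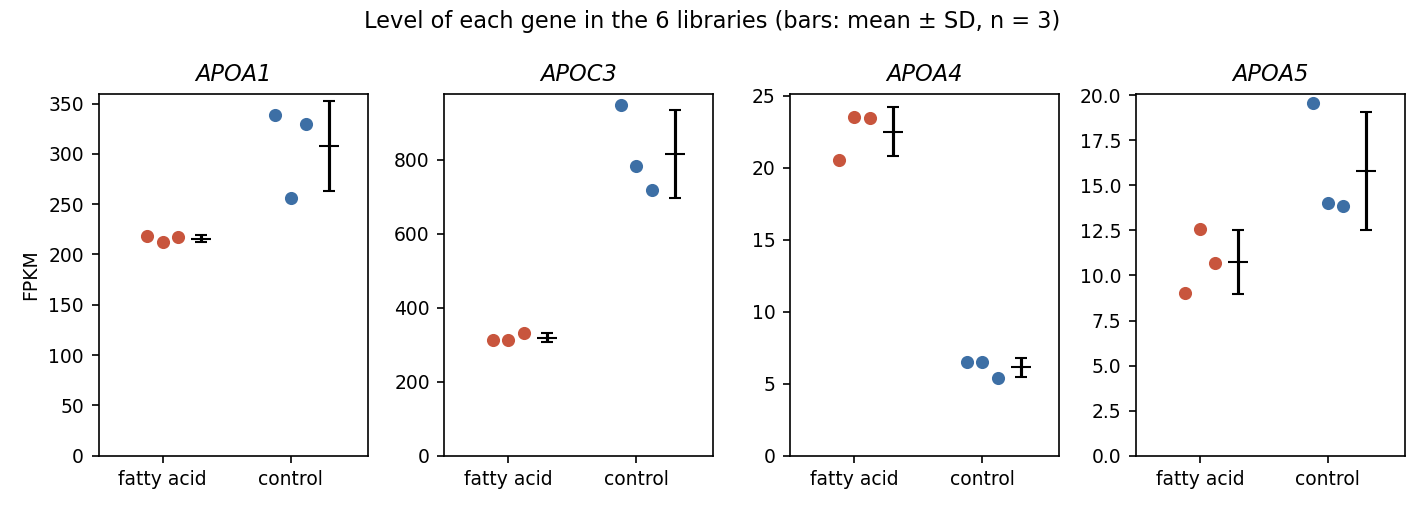
FPKM (y axis, from 0, a separate scale for each gene) of APOA1, APOC3, APOA4 and APOA5 in the 3 fatty acid libraries and the 3 control libraries; points are libraries in the order of replicates 1, 2 and 3, and bars are the mean ± SD. Fatty acid points lie below all control points for APOA1, APOC3 and APOA5 and above them for APOA4, with the narrowest gap for APOA5 (1.26 FPKM).

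Both the size and the make-up of the cluster's output differed between the groups without overlap. The summed FPKM of the 4 genes was 560, 560 and 583 with fatty acid and 1312, 1061 and 1066 in controls, 568 ± 13.5 against 1146 ± 143 (SD, n = 3 each). In reads, the 4 genes took 0.0629 to 0.0652% of a fatty acid library and 0.108 to 0.135% of a control library. APOC3 held 56.1 ± 0.728% of the summed FPKM with fatty acid and 71.1 ± 3.42% in controls. APOA1 held 38.0 ± 0.916% with fatty acid and 26.9 ± 3.50% in controls, a larger share in spite of its lower level. APOA4 held 3.96 ± 0.274% with fatty acid and 0.540 ± 0.0667% in controls, and APOA5 held 1.89 ± 0.324% with fatty acid and 1.37 ± 0.106% in controls (SD, n = 3 each). None of these 4 shares of summed FPKM overlapped between the groups (exact two-sided permutation p = 0.1 for each, the smallest possible, and 0.1 after Benjamini-Hochberg adjustment over the 4). The 4 shares are parts of the same sum, so a lower share of APOC3 raises the others together. These 4 tests are therefore not separate results. As shares of the cluster's reads, not per length, those of APOA5 overlapped, with 2.77, 3.86 and 3.17% with fatty acid and 2.81, 2.51 and 2.38% in controls (exact permutation p = 0.2), and the other 3 did not.

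The order of the levels differed at its lower end. In each fatty acid library the order was APOC3, APOA1, APOA4 and APOA5, and in each control library it was APOC3, APOA1, APOA5 and APOA4. APOA4 stood at 2.28, 1.87 and 2.20 times the FPKM of APOA5 with fatty acid, and at 0.333, 0.467 and 0.390 times in controls. APOC3 stood at 1.43, 1.47 and 1.53 times the FPKM of APOA1 with fatty acid, and at 2.80, 3.06 and 2.18 times in controls. The ranges of neighbours in this order did not overlap within either group.

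Ratios taken within each library test whether 2 members differed by the same factor. The log2 ratio of APOA4 to APOC3 was -3.80 ± 0.10 with fatty acid and -6.94 ± 0.14 in controls (SD, n = 3 each), a difference of 3.14. The difference was 2.32 for APOA4 over APOA5 and 2.29 for APOA4 over APOA1. APOA1 over APOC3, whose genes lie 2.68 kb apart, differed by 0.84, and APOA5 over APOC3 by 0.82. Groups did not overlap in these 5 pairs (exact two-sided permutation p = 0.1, the smallest possible, and 0.12 adjusted over 6 pairs). For APOA5 over APOA1 the groups overlapped, with -4.28 ± 0.25 with fatty acid and -4.25 ± 0.24 in controls, a difference of -0.03 (exact permutation p = 0.9, adjusted 0.9) that ran from -0.16 to 0.10 when 1 library was left out.

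**Figure D2:**
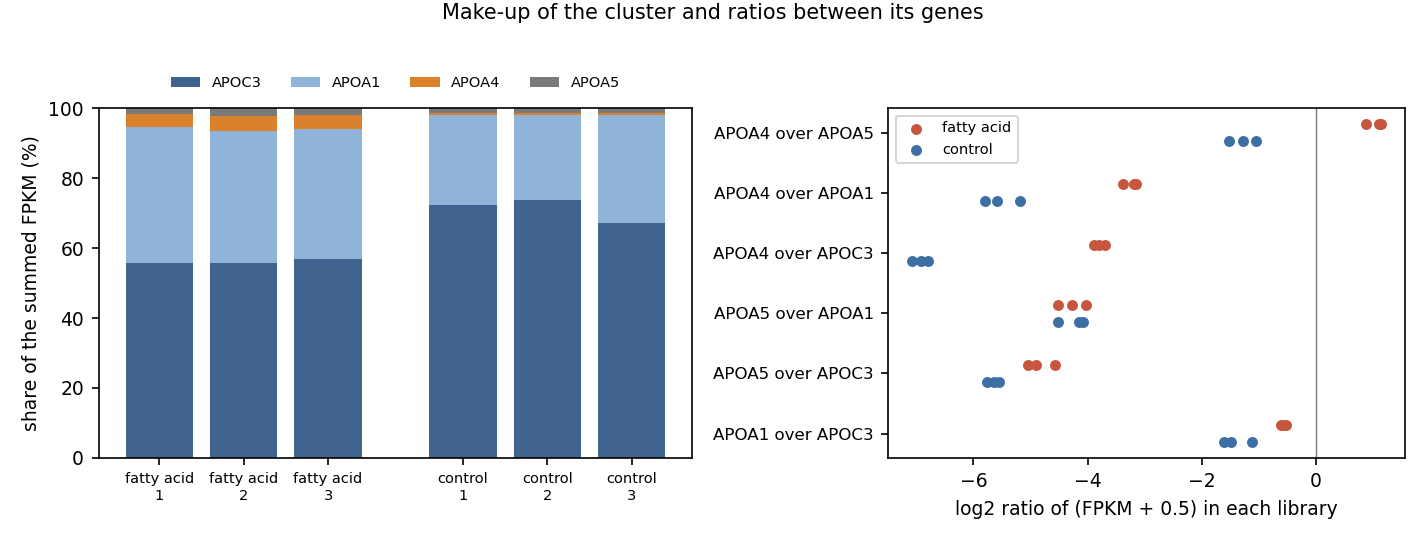
Left, the share (%) of the summed FPKM of the 4 genes held by each gene in each library. Right, the log2 ratio of FPKM + 0.5 between 2 genes in each library for the 6 pairs. The APOA4 band is 3.67 to 4.20% of the fatty acid bars and 0.497 to 0.617% of the control bars, and only the pair of APOA5 over APOA1 has overlapping points.

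Within 500 kb of the cluster the table has 28 further rows, of which 12 were tested and 10 were at 0 in all 6 libraries. By limma, 0 of the 12 passed the adjusted threshold, against 12.9% of all tested genes, and 3 had an unadjusted p under 0.05. These 3 were AP006216.5 and SIDT2, lower, and PAFAH1B2, higher. They were also the tested rows whose groups did not overlap, which held for 37.1% of all tested genes. The nearest coding genes on the APOA5 side were ZPR1, which encodes a zinc finger protein and lies 1.32 kb away (chr11:116773799-116788050), and BUD13, a splicing factor gene (chr11:116748170-116772988). ZPR1 had 7.92 ± 0.374 FPKM with fatty acid and 7.64 ± 0.655 FPKM in controls (log2 fold change 0.05 ± 0.08, limma adjusted p = 0.701). BUD13 had 4.89 ± 0.695 FPKM with fatty acid and 5.24 ± 0.504 FPKM in controls (-0.10 ± 0.11, limma adjusted p = 0.598). On the APOA1 side SIK3, a salt-inducible kinase gene 5.45 kb away (chr11:116843402-117098437), had 3.75 ± 0.177 FPKM with fatty acid and 3.79 ± 0.330 FPKM in controls (-0.01 ± 0.09, limma adjusted p = 0.942). The direction of these 3 small values turned under some of the 18 alternatives, TPM for BUD13 and SIK3 and nuclear reads for ZPR1 among them, and none of the 3 genes was called in any of the 18. The 10 tested coding neighbours ranged from -0.33 to 0.20. SIDT2, at the lower end, was called with voom on recovered reads, and PAFAH1B2, at the upper end, with TPM.

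Noncoding rows in the region rested on few reads. AP006216.5, annotated as antisense and lying between APOA5 and APOA4 (chr11:116813204-116814003, minus strand), had 3 reads in the fatty acid libraries together and 7 in the control libraries. Its depth-adjusted read ratio was 0.301 with a 95% exact interval of 0.0502 to 1.32, and its limma adjusted p was 0.0634. APOA1-AS, which runs over APOA1 on the other strand (chr11:116836117-116855729), had 5 reads in fatty acid libraries and 7 in control libraries, while APOA1 had 11859 reads in fatty acid libraries and 12172 in control libraries. Whether the counting used strand is not stated in the labels or notes, so reads of the 2 genes may not be separated. Of the other rows within 200 kb, AP006216.10 had 2 reads with fatty acid and 0 in controls, AP000936.1 had 3 with fatty acid and 1 in controls, and AP000770.1, AP000770.2 and RNY4P6 had none.

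**Figure D3:**
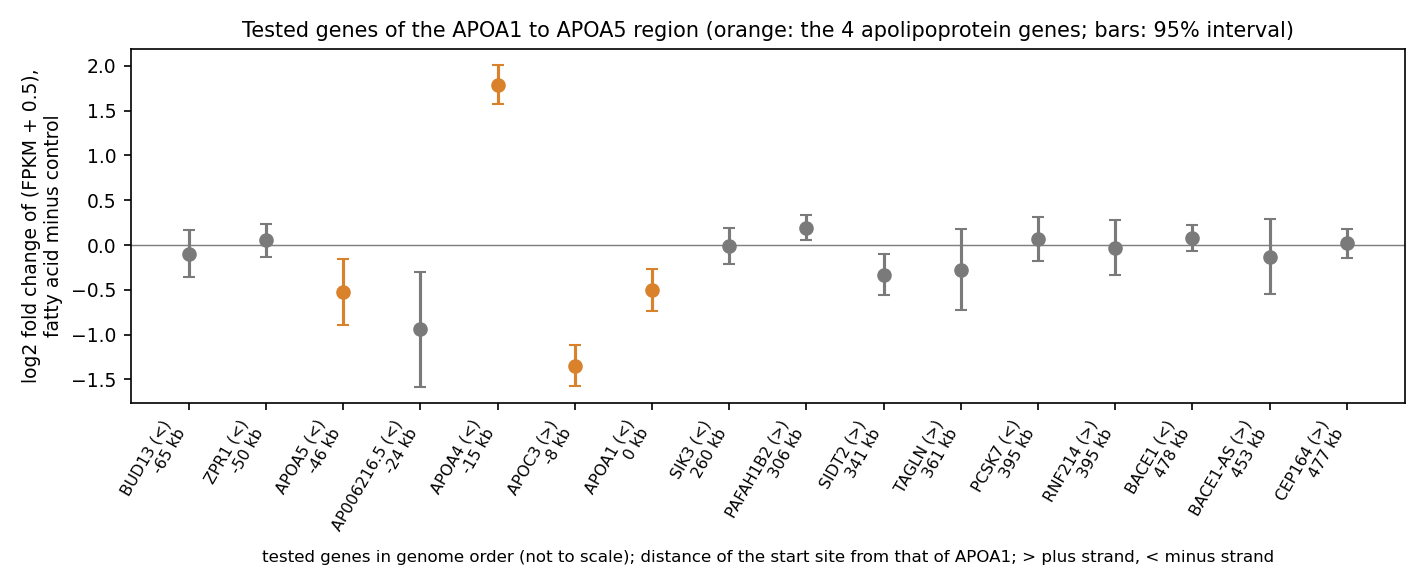
Log2 fold change of FPKM + 0.5 (y axis, fatty acid minus control) with its 95% interval for the 4 apolipoprotein genes (orange) and the 12 other tested genes within 500 kb (grey), in genome order and not to scale, with each start site's distance from that of APOA1. APOA4 (1.79) lies highest and APOC3 (-1.35) lowest, while the 10 coding neighbours lie between -0.33 and 0.20. The noncoding AP006216.5, which rests on few reads, lies at -0.94 (95% interval -1.58 to -0.30).

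By pattern over the 6 libraries, the coding gene nearest to APOA4 among 11015 with a mean of at least 1 FPKM was PTX3, which encodes a secreted pattern recognition protein. Likeness was the root mean square difference of centred log2(FPKM + 0.5) values, 0.105 for PTX3, 0.139 for ANGPTL4, an inhibitor of lipoprotein lipase, and 0.164 for PDK4, a kinase that restrains pyruvate oxidation. The nearest to APOC3 were BDH1, a ketone body dehydrogenase (0.0721), AKR1C4, an aldo-keto reductase (0.0796), and DAO, the D-amino acid oxidase (0.0991). BDH1 and DAO averaged only 0.543 and 0.624 FPKM with fatty acid, against 2.08 and 2.17 FPKM in controls. Their likeness to APOC3 therefore depends on the added 0.5. Over the alternatives their log2 fold changes ran from -1.93 to -0.99 and from -1.75 to -0.97. The nearest to APOA1 were NPR1, a natriuretic peptide receptor (0.0470), MAT1A, which makes S-adenosylmethionine in liver (0.0546), and CAPN5, a calpain (0.0580). CAPN5 itself did not pass the test (limma adjusted p = 0.0541), and was called in 5 of the 18 alternatives. Leaving out control replicate 3, or a single fatty acid library of any number, ended the calls of NPR1 and MAT1A, and leaving out control replicate 1 ended that of NPR1. Both calls also ended with TPM, with no filter and with no trend. The 6 genes nearest to APOA4 and APOC3 lost theirs in no alternative that could be fitted. All these genes were picked for likeness to a called member in the same libraries. Calls like those of the member follow from that choice and are no separate result.

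Apolipoprotein genes outside the cluster were called in both directions, and all those that rose were of the APOL family. As a background, 8.22% of all tested genes were called higher and 4.68% lower. Of 18 listed, 14 were tested, 3 rose, 6 fell and 5 did not pass, with a median log2 fold change of -0.10. APOC1, an inhibitor of lipoprotein clearance, averaged 81.0 FPKM with fatty acid and 141 FPKM in controls (log2 fold change -0.79 ± 0.07, limma adjusted p = 0.00076). APOA2, the second HDL protein, fell to 23.9 ± 0.841 FPKM, against 36.7 ± 1.69 FPKM in controls (limma adjusted p = 0.000969), and APOM, an HDL carrier of sphingosine-1-phosphate, fell by 0.79 on the log2 scale. The other fallers were APOE, APOH and CLU, outside the naming rule. APOL1, a trypanolytic serum protein, rose by 0.65 ± 0.09 on that scale (limma adjusted p = 0.00519), with APOL3 and APOL6 the other risers, both outside the naming rule. APOC2, the activator of lipoprotein lipase, was listed at 0 in all 6 libraries, as were APOC4 and LPA. Without fatty acid replicate 1 only 1 of these genes rose and 3 fell, and without fatty acid replicate 2 only 1 rose.

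Of 31 tested transcription regulators known to act on these genes, 2 rose, 4 fell and 25 did not pass (median -0.10). For comparison, 8.22% of all tested genes were called higher and 4.68% lower. CREB3L3, which activates Apoa4 in mouse liver, rose to 52.9, 48.5 and 55.0 FPKM with fatty acid, against 30.1, 25.2 and 25.7 FPKM in controls (log2 fold change 0.94 ± 0.08, limma adjusted p = 0.000688). HNF4A, an activator of APOC3, fell to 11.3, 11.4 and 12.5 FPKM, against 18.2, 15.6 and 16.3 FPKM in controls (-0.49 ± 0.08, limma adjusted p = 0.00923). NR1D1, a repressor of APOC3, fell by 0.46 ± 0.07 and MLXIPL, the glucose-responsive factor ChREBP, by 0.94 ± 0.17 on the log2 scale (limma adjusted p = 0.0104 and 0.0164). PPARA, which the naming rule did not pick, had 6.28 ± 0.445 FPKM with fatty acid and 7.17 ± 0.164 FPKM in controls (limma adjusted p = 0.138). Without fatty acid replicate 1 or 2 no regulator fell and 1 rose, and with TPM 5 rose and 3 fell. Without control replicate 3, 2 fell, MLXIPL not among them, and 1 rose, without fatty acid replicate 3, 1 rose, and without control replicate 2, 4 rose. Of 15 tested PPARA target genes 8 rose and 1 fell (median 0.41), and the 4 with the smallest adjusted p, ANGPTL4, PDK4, PLIN2 and VNN1, had log2 fold changes of 1.94, 1.57, 1.43 and 0.84. The one that fell was CYP4A11, a fatty acid hydroxylase (-1.11), and CREB3L3 is also on this list.

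Genes that act with the 4 proteins were called in both directions. Among all tested genes 8.22% were called higher and 4.68% lower, and no list was tested against these shares. Some genes are on more than 1 list, such as APOM, which is also among the other apolipoproteins. Counts of different lists are therefore not of separate genes. Of 14 VLDL and chylomicron assembly genes 2 rose (PDIA3 and SEC24D, 0.51 ± 0.05 and 0.48 ± 0.07 on the log2 scale) and 2 fell: MTTP, the triglyceride transfer protein (-0.45 ± 0.06), and TM6SF2 (-0.70 ± 0.17). TM6SF2 lost its call when control replicate 1 or 3, or any single fatty acid replicate, was left out, and also with TPM, with no filter and with the replicate block (limma adjusted p = 0.0674). With TPM 5 assembly genes rose and 1 fell. Of 10 HDL genes none rose and 5 fell, with LCAT, PON1, PON3 and APOM first among them (-0.80 ± 0.19, -0.48 ± 0.07, -0.32 ± 0.08 and -0.79 ± 0.11), and 2 or 3 fell when any 1 library was left out. LCAT kept its call only when the library left out was fatty acid replicate 1, and PON3 only when it was control replicate 3. Both also lost it with no filter and with no trend, and PON3 with TPM and with the replicate block (limma adjusted p = 0.0723). With TPM 3 HDL genes fell, and without control replicate 1 an HDL gene rose. Of 9 lipolysis genes 3 rose and 3 fell, led by ANGPTL4, ANGPTL8 (-1.14 ± 0.13), CREB3L3 and SEL1L (0.42 ± 0.07), with 1 falling without fatty acid replicate 1 or 2 and SEL1L not called without fatty acid replicate 1. Of 11 genes of the lipoprotein receptor list MYLIP, a ubiquitin ligase, fell (-0.57 ± 0.07). The median log2 fold changes were 0.11 for assembly, -0.28 for HDL, -0.08 for lipolysis and 0.16 for receptors.

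**Figure D4:**
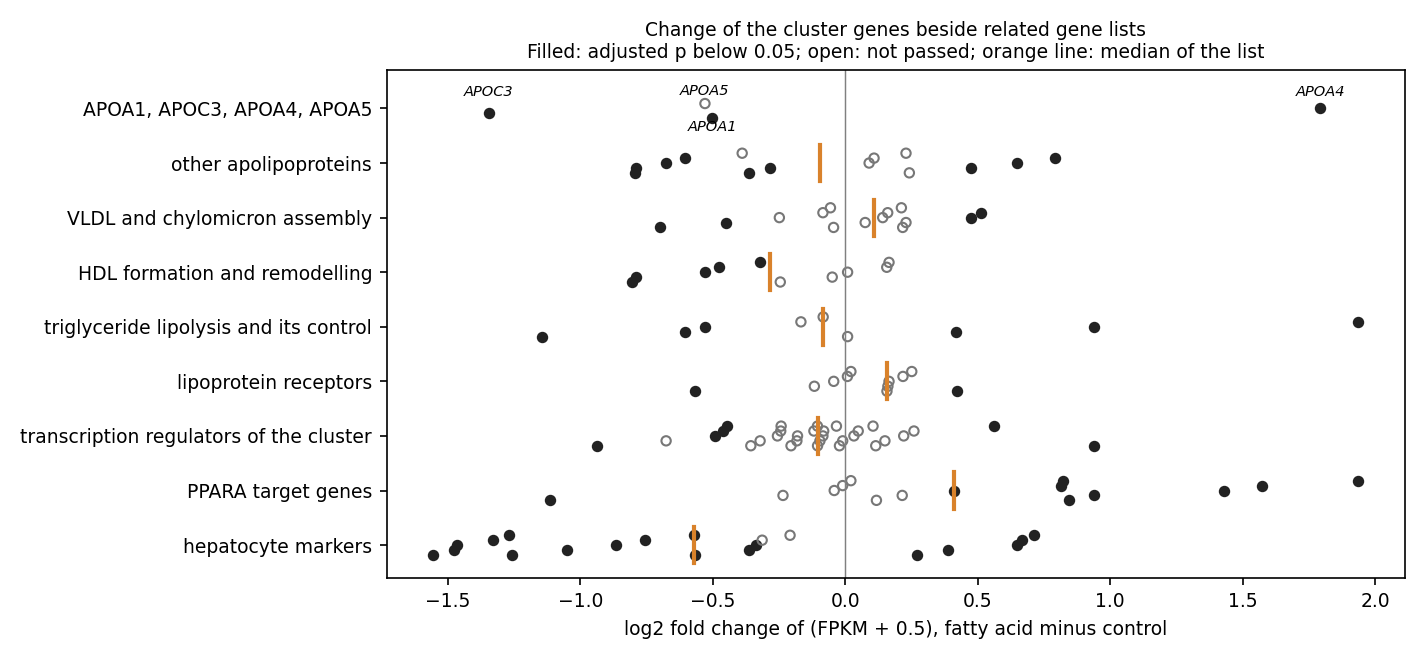
Log2 fold change of FPKM + 0.5 (x axis, fatty acid minus control) of the 4 cluster genes and of the tested genes of 8 related lists (rows); filled points passed the adjusted p threshold, open points did not, and orange lines are list medians. The medians lie between -0.57 (hepatocyte markers) and 0.41 (PPARA target genes), and APOA4 (1.79) lies above all other points except ANGPTL4 (1.94).

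Hepatocyte markers were abundant in all 6 libraries. Of 20 tested, 13 fell and 5 rose (median -0.57), while 4.68% of all tested genes were called lower and 8.22% higher. The fallers with the smallest adjusted p were CPS1, TF, TTR and AHSG (-1.56, -1.05, -1.27 and -1.26), and the 5 that rose were the fibrinogen genes FGA, FGB and FGG (0.67, 0.71 and 0.65), HP (0.39) and SERPINA1 (0.27). The summed level of the 20 was 19003 to 19418 FPKM with fatty acid and 22635 to 23144 FPKM in controls. ALB, the most abundant, averaged 7127 FPKM with fatty acid and 12025 FPKM in controls. It fell by more than the sum did, so that the other markers together were higher with fatty acid. That excess lay in the 5 that rose, such as FGA (2093 FPKM with fatty acid and 1316 FPKM in controls). Every other marker of the list averaged lower with fatty acid, RBP4 among them (1096 FPKM with fatty acid and 2002 FPKM in controls). In bulk RNA, fewer cells of a type and less RNA per cell cannot be told apart, and their part in the values of the 4 genes was not tested. Because APOA4 is an intestinal gene, 16 enterocyte markers were read as well, of which 11 were too low to test. Of these, FABP2, CDX1, CDX2, APOBEC1, SI, LCT, RBP2 and SLC5A1, grouped after their values were seen, had at most 0.082 FPKM in any library, with 3 of the 8 at 0 in all. ALPI, the intestinal alkaline phosphatase, had 0.409, 0.503 and 0.572 FPKM with fatty acid (52 reads) and 0.254, 0.240 and 0.225 FPKM in controls (17 reads), higher without overlap. MOGAT2, a monoacylglycerol acyltransferase, averaged 0.0373 FPKM with fatty acid and 0.349 FPKM in controls, lower without overlap. MEP1A averaged 0.113 FPKM with fatty acid and 0.217 FPKM in controls, with overlap. ALPI, MOGAT2 and MEP1A were themselves too low to test. Groups did not overlap for 37.1% of all tested genes (23.7% higher and 13.3% lower), and no such share was taken for genes this low. The part of these markers in the value of APOA4 was not tested. Of the 5 enterocyte list genes high enough to test (median -0.15), ENPEP rose (0.66 ± 0.09) and VIL1 and DGAT1 fell (-0.69 ± 0.13 and -0.64 ± 0.10). The summed level of the 16 genes was 229 to 233 FPKM with fatty acid and 247 to 277 FPKM in controls. ANPEP, which did not pass (limma adjusted p = 0.108), held most of it, with a mean of 213 FPKM with fatty acid and 237 FPKM in controls. VIL1 lost its call when control replicate 3, fatty acid replicate 2 or fatty acid replicate 3 was left out. Of 7 tested biliary markers 1 fell (CD24, -0.36 ± 0.05, not called with TPM; list sum 452 to 470 FPKM with fatty acid and 474 to 554 FPKM in controls). Of 7 mesenchymal markers 1 rose (LUM, 0.45 ± 0.07, not without fatty acid replicate 1; 118 to 126 FPKM with fatty acid and 101 to 111 FPKM in controls), and 1 fell without fatty acid replicate 3. Of 3 immune and endothelial markers 1 fell (KDR, -0.66 ± 0.07; 40.2 to 41.6 FPKM with fatty acid and 51.3 to 55.9 FPKM in controls), and 1 rose without control replicate 1. Without fatty acid replicate 1 or 2, 3 hepatocyte markers rose.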

How the data were processed

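Libraries were made with a stranded mRNA kit from 100 ng of total RNA of HepaRG cells kept for 14 days in growth, 14 days in differentiation and 5 days in basal medium, per the labels' protocols. GRCh38, STAR 2.5.2, Subread 1.5.1 and featureCounts are named in the submitters' processing notes. All values come from a single FPKM table that the authors deposited, with gene positions, strands and lengths per the file headers. FPKM depends on the share all other genes take.

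FPKM times length came out as whole reads for 99.99 to 100% of the values of a library (tolerance 0.02 reads), so reads and depth were recovered. Groups and replicate numbers came from the titles. On log2(FPKM + 0.5), limma 3.58.1 (R 4.3.3) with an intensity trend tested every gene whose mean reached 0.5 FPKM, and p-values were Benjamini-Hochberg adjusted over all of these. A count model was planned only for a table of counts and was not run. Pair ratios and shares used exact permutation tests (scipy 1.17.1). The limma script was tested on simulated data. No pair of replicates agreed within sampling noise.

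The members and gene lists were chosen with earlier results of these data known, so no list is independent evidence. Named genes were the 4 members, rows within 200 kb, up to 4 called genes of each list with the smallest adjusted p, and the 3 nearest patterns for each called member. Any other gene named was picked with its values known. The result of 1 list gene is not reported here. Of the lists, 12 cover apolipoproteins, VLDL, HDL, lipolysis, receptors, regulators, PPARA targets, and markers of immune and endothelial, mesenchymal, biliary, hepatocyte and enterocyte cells. Alternatives were other pseudocounts, filters and scalings, no trend, voom on recovered reads, a replicate block, and each library left out.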

Additional observations from a re-analysis of the deposited data

How the results depend on the processing

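APOA4 and APOC3 kept their direction and their call in all 18 alternatives, with log2 fold changes of 1.71 to 1.98 and -1.43 to -1.21. APOA1 and APOA5 kept their direction in all 18, at -0.63 to -0.37 and -0.64 to -0.37. Leaving out 1 library gave -0.63 to -0.43 for APOA1, and the lower members then numbered 1 to 2. They numbered 1 with no filter on low values and with no intensity trend, where APOA1 stayed at -0.50 without a call. APOA5 gained a call at a minimum of 2 FPKM (-0.53) and with voom on recovered reads (-0.52). Counted in reads and not per length, the share of APOA4 differed by 4.43 percentage points in place of 3.42, and that of APOA5, which then overlapped between the groups, by 0.701 in place of 0.524. With TPM the median log2 fold change over all genes was higher by 0.13, and relative to that median APOA1, APOC3, APOA4 and APOA5 had -0.54, -1.39, 1.80 and -0.59, against -0.55, -1.39, 1.75 and -0.57 as deposited. Whether replicate numbers pair the libraries is not stated in the labels. Correlations of deviations were 0.0122, 0.0836 and 0.0224 for same-numbered libraries and -0.094 to 0.0731 for unlike numbers, too few to decide it. With the number as a replicate block the 3 called members kept their calls (APOA1 -0.50, limma adjusted p = 0.0246) and APOA5 did not pass (-0.53, limma adjusted p = 0.11). Of the other called genes that the naming rule picked, TM6SF2 and PON3 lost their calls under the block.

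Over all genes, 1205 were higher and 686 lower. With no filter these were 640 and 337, with TPM 2615 and 408, and with voom 1842 and 1155. Higher genes numbered 779 with the median of ratios, 758 with quantile normalization, 710 with nuclear reads and 642 without the trend. Leaving out 1 library gave 230 to 1109 higher and 233 to 686 lower genes, and 1 to 3 higher and 3 to 6 lower other apolipoprotein genes. Values of 3 neighbours that did not pass changed sign: BUD13 with TPM (0.0296), ZPR1 with nuclear reads (-0.000319) and SIK3 with TPM (0.118). Leaving out 1 library gave -0.014 to 0.101 for ZPR1, below 0 without control replicate 2, and -0.0705 to 0.0409 for SIK3, above 0 without control replicate 1 or fatty acid replicate 1. The causes were not tested. edgeR, planned only for a table of counts, was not run, nor was DESeq2, and voom was the test on recovered reads. Control levels of APOA4 rest on 61 to 94 reads per library, which limits their precision.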
